A study of Mus musculus with 16 samples.

Results

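Mitochondrial ribosomal proteins are the nuclear-encoded proteins of the ribosome that works inside mitochondria. They were taken as all genes whose symbol in the deposited count table begins with Mrpl or Mrps followed by a digit, leaving out 5 pseudogene symbols ending in -ps. This gave 77 of 47069 genes, of which 48 carry large subunit names (Mrpl) and 29 carry small subunit names (Mrps). All 77 are annotated as protein-coding, and they lie on 17 chromosomes. RNA-seq was performed on bone marrow-derived macrophages (BMMs) from C57BL/6 mice aged 8 to 10 weeks. The cells were harvested at day 7, primed overnight with IFNγ at 10 ng/mL, and activated for 1 hr by LPS at 100 ng/mL together with immune complexes of ovalbumin and rabbit IgG (LPS/ICs). Both groups received all of these agents, and they differed only in DAPT, a gamma-secretase inhibitor (GSI), at 25 μM, or its vehicle DMSO at 0.01%, which the methods say was present overnight before activation. Each group had 2 replicates with 4 columns of counts each, which were summed to 1 library per replicate. The labels do not say whether the replicates came from separate mice or cultures, so that p-values measure only the spread between these samples.

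Mitochondria keep their own ribosome, which translates the mRNAs of the mitochondrial genome into core subunits of the respiratory chain and of ATP synthase. Its rRNAs are transcribed inside the organelle, whereas every one of its proteins is made in the cytosol from a nuclear gene and imported. The large subunit joins amino acids and holds the exit tunnel, and the small subunit binds the mRNA and decodes it. Many of the proteins have a bacterial homologue and many others are found only in mitochondria. Gamma-secretase cleaves Notch receptors among many other membrane proteins. LPS activation is known to shift macrophages from mitochondrial respiration toward glycolysis.

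The depth was 42694655 and 56932059 counts for the DMSO libraries, and 48483661 and 49511733 for the GSI libraries. A total of 76 of the 77 genes passed the filter on low counts, with 235 to 2661 counts per gene and library. Over all 77 genes the 4 runs of each library agreed within sampling noise, with a mean chi-square per degree of freedom of 0.922 to 1.17. The macrophage genes Lyz2, Csf1r and Cd68 were high in all 4 libraries, and the summed level of 8 macrophage markers was 12278 and 12485 CPM (counts scaled to the size of the library) with DMSO against 9489 and 10414 CPM with GSI. Of these 8 markers, 6 were lower and 1, Mertk, was higher with GSI at an FDR under 0.05, against 21.9% and 19.0% of all genes tested. The summed levels of 8 granulocyte, 4 B cell, 3 T cell, 3 dendritic cell, 4 erythroid and 4 stromal markers lay between 0 and 1.29 CPM, with Elane and Prtn3 at 0 counts in all 4 libraries.

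Mitochondrial ribosomal protein mRNAs were slightly higher with GSI across both subunits. In the quasi-likelihood test of edgeR, adjusted by Benjamini-Hochberg over 13211 genes, 48 of the 76 tested genes were higher at an FDR under 0.05 (63.2%), against 19.0% of all genes tested. None was lower, against 21.9% of all genes. At an unadjusted p under 0.05 in edgeR 56 were higher and 0 lower, against 23.8% and 25.3% of all genes. In DESeq2 33 were higher and 0 lower after adjustment, against 13.6% and 18.4%, and 44 were higher and 0 lower before it, against 17.7% and 22.1%. At an FDR under 0.01 in edgeR 29 were higher, against 12.2%. Among the 5121 genes whose mean level fell within the range of the mitochondrial ribosomal proteins, 5.84 to 49.0 CPM, 22.4% were higher.

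**Figure D1:**
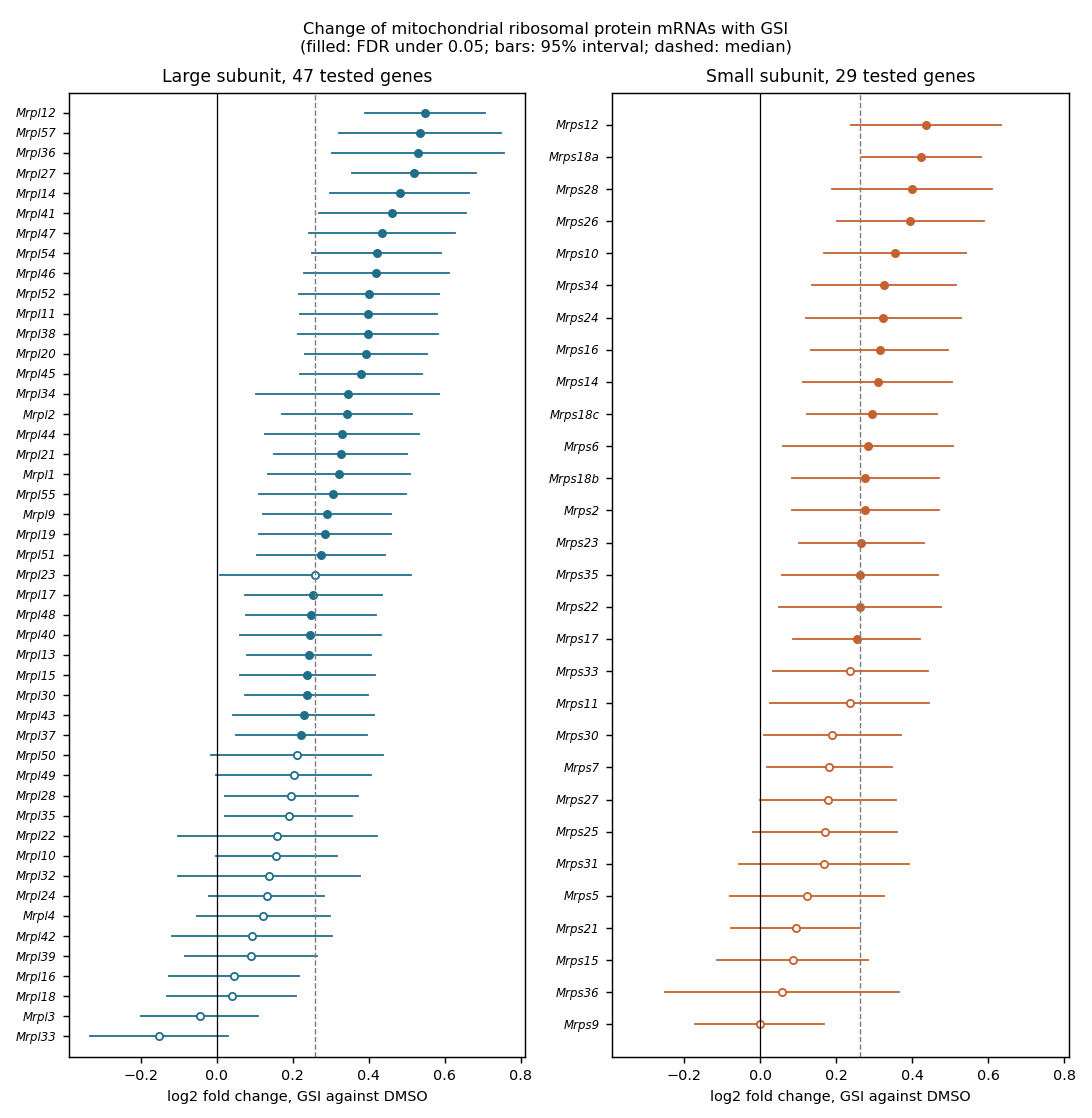
The log2 fold change with GSI (x axis) of each tested gene, large subunit names on the left and small subunit names on the right. Bars are 95% intervals derived from the F statistic of edgeR's test. Filled points mark an FDR under 0.05 and the dashed line marks the median, 0.26 in both panels. All 48 filled points lie to the right of 0, and only Mrpl33, Mrpl3 and Mrps9 lie at or to the left of it.

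The size of the change was small for every gene. The median log2 fold change was 0.26, a fold of 1.20, with quartiles of 0.18 and 0.35 and a range of -0.15 to 0.55. The median over all genes tested was 0.0146. A total of 73 genes had a log2 fold change above 0 and 3 had one below 0. In 62 of the 76 genes both GSI libraries lay above both DMSO libraries, which was the case for 35.8% of all genes. At the further threshold of an absolute log2 fold change above 1.5, which 2.91% of all genes passed together with the FDR, there were 0 of them. Standard errors of the log2 fold changes ran from 0.0721 to 0.148. The count fell when a library was left out: it was 27 instead of 48 without DMSO replicate 2, 38 without DMSO replicate 1, 39 without GSI replicate 1 and 46 without GSI replicate 2. The share higher over all genes fell too, from 19.0% to 14.4%, 13.4%, 16.6% and 16.5% in the same order. In RNA from whole cultures, fewer cells of a type and less RNA per cell cannot be told apart.

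The shift was present in each library. Relative to its mean with DMSO, the median gene stood at a log2 difference of 0.0225 in DMSO replicate 1, -0.0229 in DMSO replicate 2, 0.29 in GSI replicate 1 and 0.27 in GSI replicate 2. Both GSI libraries were therefore higher than both DMSO libraries by more than the replicates differed. The summed level of the 76 tested genes was 1532 and 1487 CPM with DMSO and 1828 and 1760 CPM with GSI.

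**Figure D2:**
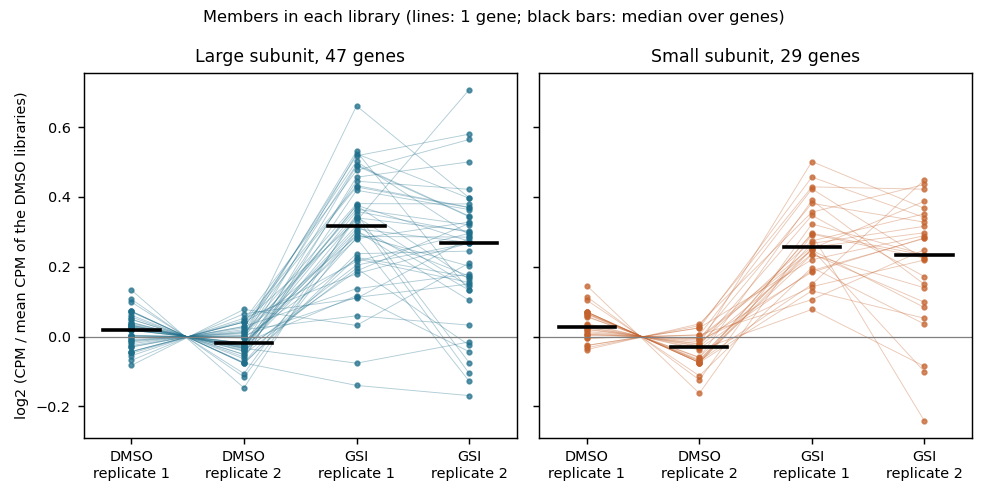
Each tested gene in each library as log2 of its CPM over its mean CPM in the DMSO libraries (y axis), with 1 thin line per gene and black bars at the median over genes of a subunit. The medians of the GSI libraries lie between 0.23 and 0.32 and those of the DMSO libraries between -0.0285 and 0.0280.

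The largest increases were in genes of the large subunit. Mrpl12 is the stalk protein of the large subunit that is also known to bind the mitochondrial RNA polymerase. It was at 28.2 and 28.8 CPM with DMSO and at 40.8 and 42.6 CPM with GSI, a log2 fold change of 0.55 (SE 0.0758). Mrpl57 was at 10.5 and 10.5 CPM with DMSO and at 16.5 and 13.8 CPM with GSI, a log2 fold change of 0.53. Mrpl36, a homologue of a bacterial large subunit protein, was at 11.7 and 12.4 CPM with DMSO and at 15.1 and 19.6 CPM with GSI, a log2 fold change of 0.53. The GSI libraries lay above the DMSO libraries in all of these genes, but they differed from each other more for Mrpl57 and Mrpl36 than for Mrpl12. Mrpl27, whose bacterial homologue reaches toward the site of peptide bond formation, was at 26.2 and 27.9 CPM with DMSO and at 37.6 and 40.0 CPM with GSI, a log2 fold change of 0.52. The Benjamini-Hochberg adjusted p-values of edgeR's test were 7.31e-06 for Mrpl12, 0.000277 for Mrpl57, 0.000585 for Mrpl36 and 2.13e-05 for Mrpl27.

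The promoters of these genes and of the genes at the other end of the range are shown to compare genes that rose most with genes that did not change detectably. Each stretch is the 120 bases before the start annotated in RefSeq, on the plus strand of GRCm38.p6. They lie at chr11:120484517-120484636 for Mrpl12, chr14:57826119-57826238 for Mrpl57, chr13:73330889-73331008 for Mrpl36 and chr11:94653671-94653790 for Mrpl27. For the genes that did not rise they lie at chr1:42851113-42851232 for Mrps9, chr9:105053148-105053267 for Mrpl3 and chr5:31613831-31613950 for Mrpl33. The GENCODE gene start, used further below for pairs of genes, lies well upstream for Mrpl36 (chr13:73328513) and Mrpl33 (chr5:31596935). Capitals mark a match on either strand to the ETS motif CCGGAAG or the NRF1 motif GCATGCG or the YY1 motif AAGATGG. Of these factors, NRF1 and the ETS factor GABP are known activators of nuclear genes for mitochondrial proteins.
Mrpl12: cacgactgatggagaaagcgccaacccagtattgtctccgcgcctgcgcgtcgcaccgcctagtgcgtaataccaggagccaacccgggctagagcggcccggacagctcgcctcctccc
Mrpl57: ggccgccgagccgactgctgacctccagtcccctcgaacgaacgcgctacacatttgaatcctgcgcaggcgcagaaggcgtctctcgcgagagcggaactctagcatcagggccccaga
Mrpl36: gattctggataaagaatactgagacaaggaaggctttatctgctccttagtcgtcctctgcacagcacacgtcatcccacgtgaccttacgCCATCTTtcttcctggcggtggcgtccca
Mrpl27: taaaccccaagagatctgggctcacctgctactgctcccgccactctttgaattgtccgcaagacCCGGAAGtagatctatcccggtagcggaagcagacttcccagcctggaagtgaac
Mrps9: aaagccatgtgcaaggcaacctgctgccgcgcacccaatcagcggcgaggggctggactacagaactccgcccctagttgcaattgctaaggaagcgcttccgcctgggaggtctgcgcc
Mrpl3: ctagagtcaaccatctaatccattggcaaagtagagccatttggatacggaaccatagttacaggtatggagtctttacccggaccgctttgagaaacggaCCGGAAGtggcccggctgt
Mrpl33: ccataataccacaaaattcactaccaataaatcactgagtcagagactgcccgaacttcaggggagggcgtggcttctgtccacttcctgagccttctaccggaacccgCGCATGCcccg
Matches occurred in both sets: Mrpl27 and Mrpl3 each had an ETS match, Mrpl36 had a YY1 match and Mrpl33 an NRF1 match. Mrpl12 and Mrpl57, which rose the most, had no match in this stretch, and neither had Mrps9. Mrpl57 and Mrpl33 each held an ETS match elsewhere in the longer window described next.

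In the longer RefSeq window of 250 bases before to 50 bases after the start, which was at hand for 68 of the 77 genes, 25 held the ETS motif (36.8%), against 20.6% of 9401 tested genes with a window. The YY1 motif was in 13 (19.1%) against 8.73%, and the NRF1 motif in 8 (11.8%) against 7.41%. At least 1 of these motifs was in 37 of the 68 windows (54.4%), against 32.4% of tested genes. The E-box CACGTG, which MYC can bind, was in 5 (7.35%) against 11.9%. The motif CCAAT was in 27 (39.7%) against 42.9%, and TATAAA was in 5 (7.35%) against 8.53%. A match is a run of letters and not a measured binding site. The median log2 fold change was 0.27 in 24 tested genes with an ETS match and 0.25 in 43 without. It was 0.16 in 8 with an NRF1 match and 0.27 in 59 without, and 0.22 in 13 with a YY1 match and 0.26 in 54 without. For the E-box it was 0.34 in 5 and 0.25 in 62, for CCAAT 0.20 in 26 and 0.27 in 41, and for TATAAA 0.25 in 5 and 0.26 in 62. These medians are descriptions, and some rest on very few genes. The ETS motif was in 17 of 40 genes called higher (42.5%) and in 7 of 27 not called (25.9%). The E-box was in 5 of the 40 and 0 of the 27, and the NRF1 motif in 3 of the 40 (7.50%) and 5 of the 27 (18.5%).

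**Figure D3:**
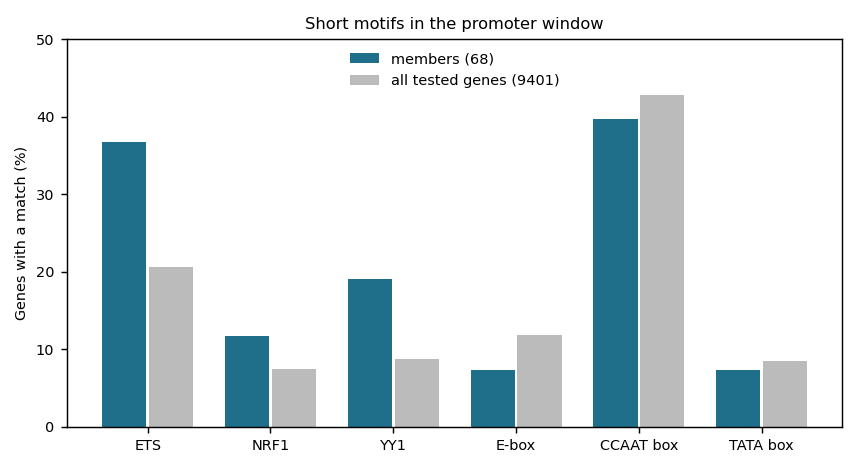
Share of genes whose promoter window holds each motif (y axis, percent), for 68 mitochondrial ribosomal protein genes and for 9401 tested genes. The ETS bar (36.8% against 20.6%) and the YY1 bar (19.1% against 8.73%) are taller for the mitochondrial ribosomal protein genes, and the E-box bar is shorter (7.35% against 11.9%).

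Of the 47 tested genes with large subunit names, 31 were higher with GSI (66.0%), against 19.0% of all genes (13.6% in DESeq2). Their median log2 fold change was 0.26, with quartiles of 0.19 and 0.40. The count was 19 without DMSO replicate 2 and 22 in DESeq2. Mrpl14, the protein to which the anti-association factor Malsu1 binds, was at 15.7 and 14.4 CPM with DMSO and at 20.6 and 21.2 CPM with GSI, a log2 fold change of 0.48. Mrpl41, a protein found only in mitochondrial ribosomes, was at 12.4 and 12.0 CPM with DMSO and at 17.5 and 16.1 CPM with GSI, a log2 fold change of 0.46. Mrpl47, near the exit tunnel, was at 11.8 and 11.2 CPM with DMSO and at 15.7 and 15.4 CPM with GSI, a log2 fold change of 0.43. In these genes the gap between the groups was larger than the gap within either, which largely follows from naming them for their increase. Mrpl44, which carries a fold related to RNase III and is mutated in an inherited cardiomyopathy, rose from 9.97 and 9.55 CPM to 12.5 and 12.0 CPM, a log2 fold change of 0.33, and without DMSO replicate 2 had one of 0.30 and lost its call. Mrpl54 rose by a log2 fold change of 0.42. Mrpl17 and Mrpl15 rose by 0.25 and 0.24 on the log2 scale, but neither passed in DESeq2. Mrpl17 lost its call without DMSO replicate 1 (0.21) or GSI replicate 2 (0.22), and Mrpl15 without DMSO replicate 1 (0.26), DMSO replicate 2 (0.22) or GSI replicate 1 (0.17). Mrpl24, at 46.7 and 46.9 CPM with DMSO and 50.6 and 52.0 CPM with GSI, had a log2 fold change of 0.13 and did not pass, with an adjusted p of 0.153 in edgeR's test. Mrpl23 had a log2 fold change of 0.26 at an adjusted p of 0.0895 in the same test, and passed with the replicate number as a block (0.26).

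Of the 29 tested genes with small subunit names, 17 were higher with GSI (58.6%), against 19.0% of all genes (13.6% in DESeq2). Their median log2 fold change was 0.26, with quartiles of 0.18 and 0.31. The count was 8 without DMSO replicate 2 and 11 in DESeq2. Mrps12, the homologue of the bacterial protein at the decoding site, was at 11.2 and 10.8 CPM with DMSO and at 15.6 and 14.2 CPM with GSI, a log2 fold change of 0.44, the largest among the small subunit names. Mrps10, a protein conserved from bacteria, rose from 13.1 and 12.95 CPM to 17.0 and 16.3 CPM, a log2 fold change of 0.36. Mrps16, mutated in an inherited defect of mitochondrial translation, rose from 16.2 and 15.8 CPM to 19.3 and 20.4 CPM, a log2 fold change of 0.31. In each of these genes both GSI libraries lay above both DMSO libraries, as they did in 35.8% of all genes. Mrps23 rose by 0.27 on the log2 scale, and Mrps22 and Mrps35, which have no bacterial homologue, rose by 0.26 each. Mrps22 and Mrps35 stood close to the threshold, with adjusted p-values of 0.0449 and 0.0385 in edgeR's test, and neither passed in DESeq2. Mrps22 also lost its call with RLE or with no normalization factors (0.26 in both). Both lost their call without DMSO replicate 1 (0.33 and 0.29), DMSO replicate 2 (0.19 and 0.23) or GSI replicate 1 (0.23 and 0.17), and Mrps23 without DMSO replicate 2 (0.19). Mrps5 and Mrps25 did not pass, with log2 fold changes of 0.12 and 0.17.

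The Mrps18 paralogues were all higher. Mrps18a, which despite its name sits in the large subunit, was at 29.4 and 30.7 CPM with DMSO and at 40.4 and 40.2 CPM with GSI, a log2 fold change of 0.42. Mrps18c, which corresponds to the bacterial protein, was at 25.6 and 23.1 CPM with DMSO and at 29.3 and 30.3 CPM with GSI, a log2 fold change of 0.29. Mrps18b, a protein of the mitochondrial small subunit, was at 11.5 and 11.5 CPM with DMSO and at 13.7 and 14.1 CPM with GSI, a log2 fold change of 0.28. Both GSI libraries lay above both DMSO libraries in each of the paralogues, as they did in 35.8% of all genes. Among the paralogues Mrps18a had the largest log2 fold change. Mrps18c lost its call without DMSO replicate 2 (0.22), and Mrps18b without DMSO replicate 1 (0.28), DMSO replicate 2 (0.27) or GSI replicate 2 (0.26). Mrps18b also did not pass in DESeq2 (0.27). Mrps30, another large subunit protein with a small subunit name, was at 19.9 and 18.2 CPM with DMSO and at 22.4 and 20.98 CPM with GSI, with a log2 fold change of 0.19 and an adjusted p of 0.0852 in edgeR's test, and it passed with the replicate number as a block (0.19). Mrps36, which is now known as a subunit of the 2-oxoglutarate dehydrogenase complex and not of the ribosome, was at 7.55 and 6.10 CPM with DMSO and at 8.36 and 5.77 CPM with GSI, so its groups overlapped. Mrps18a and Mrps30 were then counted with the large subunit and Mrps36 was left out. This gave 32 of 49 large subunit genes and 16 of 26 small subunit genes higher, against 19.0% of all genes.

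A few genes stayed near their DMSO level. Mrpl33, a small protein with a bacterial homologue, was at 20.99 and 18.9 CPM with DMSO and at 18.1 and 17.8 CPM with GSI, a log2 fold change of -0.15 (95% interval -0.33 to 0.03, adjusted p 0.173 in edgeR's test). Mrpl3, which is mutated in an inherited cardiomyopathy, was at 44.5 and 42.5 CPM with DMSO and at 41.3 and 43.1 CPM with GSI, a log2 fold change of -0.04 (95% interval -0.20 to 0.11). Mrps9 was at 31.2 and 29.6 CPM with DMSO and at 32.1 and 28.7 CPM with GSI, a log2 fold change of -0.00067 (95% interval -0.17 to 0.17). Mrpl33 was thus the only gene of all 76 whose GSI libraries both lay below both DMSO libraries. Mrpl18 and Mrpl16, both conserved from bacteria, had log2 fold changes of 0.04 and 0.05. Mrps15, conserved from bacteria, was at 38.6 and 34.9 CPM with DMSO and at 43.7 and 34.3 CPM with GSI, so GSI replicate 2 was the lowest library and GSI replicate 1 the highest. Without GSI replicate 2 its log2 fold change was 0.25 and passed. Mrps21 had a log2 fold change of 0.09. Mrpl53 was not tested, since its libraries held only 4 and 8 counts (DMSO) or 10 and 5 counts (GSI). Of its exon bases, 88.0% are shared on the same strand with Gm42688, so reads from it may have been left uncounted, which was not tested.

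The levels of the genes relative to each other spanned a wider range than any change with GSI. Among the 76 tested genes, per kb of the principal transcript, the mean level over the 4 libraries ran from 2.52 CPM per kb for Mrpl17 to 61.2 CPM per kb for Mrpl42, a 24.3-fold range, with a median of 13.6. Mrps21 was next to the top at 60.1 CPM per kb, and the 2 genes differed by less than the libraries of either. Mrpl20 was at 46.96, Mrpl54 at 46.5, Mrpl27 at 43.6, Mrps18c at 42.5 and Mrps15 at 40.4 CPM per kb. At the low end, Mrps25 was at 2.60 and Mrps35 at 2.84 CPM per kb. Most of these proteins are known to be present in a single copy per ribosome, the stalk protein Mrpl12 being an exception. The median was 15.5 CPM per kb for the large and 10.9 for the small subunit names. Mrpl42 and Mrpl20 were chosen for mention after their values were seen, since the rule for naming genes ranked levels per kb of all annotated exons. The choice of length matters for single genes: per kb of all annotated exons Mrpl33 was at 2.59, and per kb of its principal transcript at 39.7 CPM per kb. Across the 76 genes the mean level in CPM and the log2 fold change had a Spearman rho of -0.21, a description across genes that share the same libraries.

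**Figure D4:**
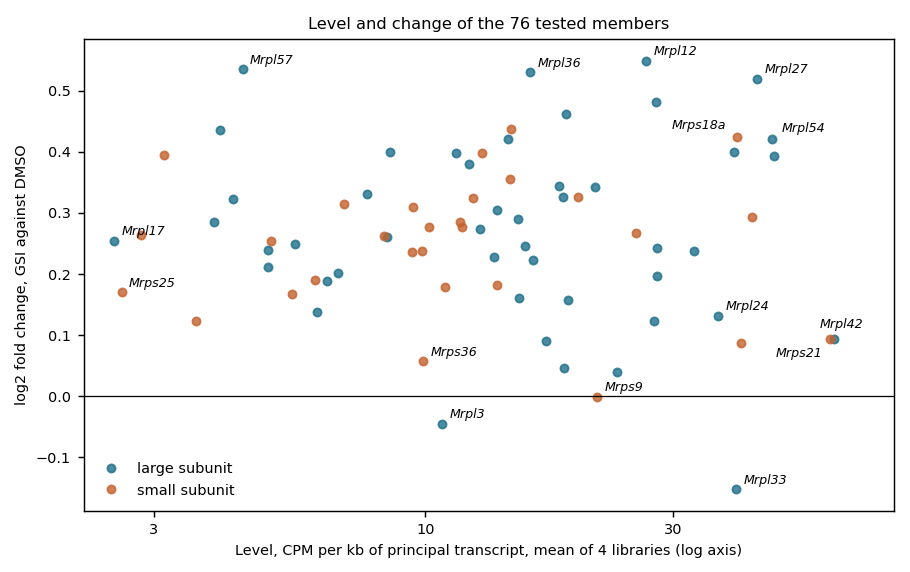
Mean level over the 4 libraries in CPM per kb of principal transcript (x axis, log scale) against the log2 fold change with GSI (y axis), 1 point per tested gene and colored by subunit name. High and low levels are both found among the genes that rose most, such as Mrpl27 at 43.6 and Mrpl57 at 4.46 CPM per kb.

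The balance between the subunits was compared in each library, since a ribosome needs both. The summed level of the large subunit names was 1016 and 997 CPM with DMSO and 1225 and 1176 CPM with GSI, a mean of 1006 ± 13.5 against 1201 ± 34.1 (SD, n = 2 each) and a ratio of 1.19. The summed level of the small subunit names was 517 and 491 CPM with DMSO and 603 and 584 CPM with GSI, a mean of 504 ± 18.5 against 593 ± 13.9 and a ratio of 1.18. Both subunits were thus higher in both GSI libraries by similar proportions. With DMSO the large subunit names summed to 1.97 and 2.03 times the small, and with GSI to 2.03 and 2.02 times. The mean of this ratio was 1.999 ± 0.0465 with DMSO and 2.02 ± 0.0103 with GSI (SD, n = 2 each), a difference smaller than the gap between the DMSO libraries. With Mrps18a and Mrps30 counted as large and Mrps36 left out, the ratio was 2.316 and 2.400 with DMSO. With GSI it was then 2.420 and 2.395. With levels per kb of all annotated exons, the DMSO libraries had ratios of 1.93 and 2.03, and the GSI libraries 2.08 and 2.08. Per kb of the principal transcript they were 1.93 and 2.002 with DMSO, and 2.003 and 2.015 with GSI. By either length both GSI libraries lay above both DMSO libraries, which was not so for the summed CPM. With 2 libraries per group an exact two-sided permutation test cannot go below p = 0.333, which was its value for both ratios per kb, and it gave p = 1 for the summed CPM.

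The share called was similar in genes free of overlaps. Exons of 27 of the 77 genes overlap a gene on the other strand, and those of 8 overlap a gene on the same strand. Among the 45 tested genes whose exons overlap no other gene, 28 were higher (62.2%), against 19.0% of all genes. Their median log2 fold change was 0.26. Among 26 tested genes with exons shared with the other strand, 16 were higher.

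Many of the genes start close to another gene. A total of 33 of the 76 tested genes (43.4%) have a protein-coding gene on the other strand whose start lies within 1000 bases of their own, head to head, against 17.2% of 11654 tested protein-coding genes. In 30 cases the partner was tested too, and 12 partners were higher and 4 lower with GSI, where 19.0% of all genes were higher and 21.9% lower. One of the 12 is Mrpl46, itself among the 48 higher genes. The median log2 fold change of the partners was 0.23, and that of the mitochondrial ribosomal protein genes was 0.27 with such a partner and 0.26 without. The examples that follow were chosen after their values were seen. Mrpl46 and Mrps11, with starts 412 bases apart, place a large and a small subunit gene side by side, with log2 fold changes of 0.42 and 0.24, the latter at an adjusted p of 0.0669 in edgeR's test. Mrpl54 and Apba3 rose together by 0.42 and 0.49 on the log2 scale. Mrpl36 and Ndufs6, a subunit of respiratory complex I, rose together by 0.53 and 0.29. The promoter stretch shown above for Mrpl36 lies at another start and not beside Ndufs6. The 4 partners that were lower moved against their neighbour. Mrpl57 rose by 0.53 while Ska3, a kinetochore protein 49 bases away, fell by 1.17 on the log2 scale. Mrpl51 rose by 0.27 while Ncapd2, a condensin subunit, fell by 1.14. Mrpl27 rose by 0.52 while Eme1, a subunit of a DNA repair endonuclease, fell by 0.89. Mrps18b rose by 0.28 while Ppp1r10, a regulator of protein phosphatase, fell by 0.22. The 6 markers of cycling cells were all lower with GSI, with summed levels of 402 and 390 CPM with DMSO and 234 and 221 CPM with GSI. The part that this shift in cycling genes has in the rise of the mitochondrial ribosomal protein genes was not tested.

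Some subunits have other kinds of names. Of 5 such genes, where 19.0% of all genes were higher, Gadd45gip1, Chchd1 and Aurkaip1 were higher with log2 fold changes of 0.39, 0.32 and 0.35. Dap3, a GTP-binding protein of the small subunit, and Ptcd3, a small subunit protein with RNA-binding repeats, had log2 fold changes of 0.19 and 0.17 and did not pass. Mrpl58, a large subunit protein able to hydrolyze peptidyl-tRNA, is listed under the older symbol Ict1 and therefore falls outside the naming rule. It was at 10.8 and 10.9 CPM with DMSO and at 15.9 and 13.7 CPM with GSI, a log2 fold change of 0.45.

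Of 22 genes for ribosome assembly and rRNA modification, 5 were higher and 1 was lower, with a median log2 fold change of 0.19. The share higher was close to the 19.0% over all genes. Among the genes called, the methyltransferase Mrm2 had the largest increase at 0.66, followed by Ngrn at 0.50 and Mpv17l2 at 0.36. Rbfa, a maturation factor of the small subunit, was at 48.3 and 46.4 CPM with DMSO and at 41.4 and 38.3 CPM with GSI, and fell by 0.25 on the log2 scale. It was the only gene of this list to move against the ribosomal proteins at an FDR under 0.05. Of 16 translation factors and translational activators, 4 were higher and 0 lower, with a median of 0.16, also a share not far from that over all genes. These were Taco1 at 0.53, the elongation factor Tsfm at 0.46, Slirp at 0.34 and C1qbp at 0.24.

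Of 12 genes for mtDNA transcription, RNA processing and replication, 6 were higher and 0 lower, against 19.0% and 21.9% of all genes, with a median log2 fold change of 0.26. Hsd17b10, a subunit of mitochondrial RNase P that is also a metabolic dehydrogenase, was at 26.6 and 25.9 CPM with DMSO and at 51.0 and 46.2 CPM with GSI, a log2 fold change of 0.89. The helicase Twnk, listed under its older symbol Peo1, had a log2 fold change of 0.59 and the elongation factor Tefm one of 0.48. The 78 cytosolic ribosomal protein genes changed less, with 9 higher, a smaller share than over all genes, 0 lower and a median of 0.08. The difference between the lists was not tested.

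RNAs encoded by mtDNA, which the mitochondrial ribosome translates or is built from, went the other way. Of 15 such genes in the table, 9 were tested, and 8 were lower and 0 higher with GSI, against 21.9% and 19.0% of all genes, with a median log2 fold change of -0.31. mt-Cytb was at 499.5 and 445 CPM with DMSO and at 357 and 302 CPM with GSI, and fell by 0.52 on the log2 scale. mt-Nd6 fell by 0.64 and mt-Nd5 by 0.46. The rRNA of the small subunit, mt-Rnr1, was at 110 and 104 CPM with DMSO and at 88.4 and 89.4 CPM with GSI, a log2 fold change of -0.26. The rRNA of the large subunit, mt-Rnr2, was at 120 and 130 CPM with DMSO and at 105 and 121 CPM with GSI, so its groups overlapped, with a log2 fold change of -0.14 and an adjusted p of 0.152 in edgeR's test. These libraries were made from poly(A) RNA, so the rRNA levels count only what that selection retains. The other 6, among them mt-Co2, mt-Atp6 and mt-Co3, were listed at 0 or 1 count per library. They belong to genes that respiring cells transcribe at high levels, so these counts were not read as levels.

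**Figure D5:**
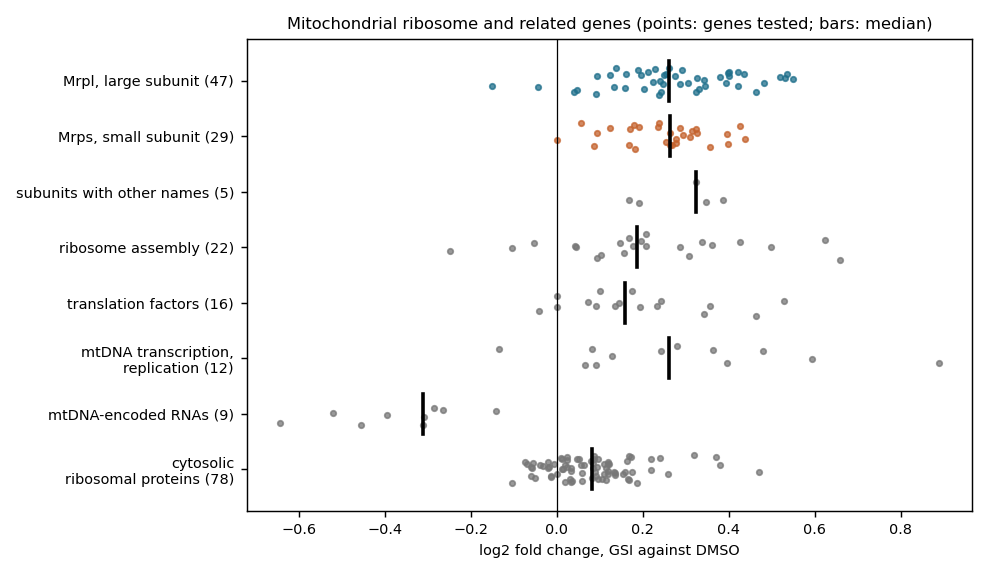
Log2 fold change with GSI (x axis) of each tested gene of the mitochondrial ribosome and of related lists, with the number of genes in parentheses and a black bar at the median. The mtDNA-encoded RNAs have a median of -0.31, the large and small subunit names both 0.26, and the cytosolic ribosomal proteins 0.08.

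Regulators known to act on nuclear genes for mitochondria did not move in 1 direction. Of 8 tested, 2 were higher and 3 lower, numbers too small to set apart from the 19.0% higher and 21.9% lower over all genes. Myc, a driver of growth and of ribosome production, was at 44.6 and 50.02 CPM with DMSO and at 18.2 and 18.4 CPM with GSI, and fell by 1.37 on the log2 scale. Gabpa, the DNA-binding subunit of GABP, was at 53.5 and 49.5 CPM with DMSO and at 38.3 and 37.1 CPM with GSI, and fell by 0.45, and its partner Gabpb1 fell by 0.34. The nuclear receptor Esrra was at 52.1 and 52.2 CPM with DMSO and at 69.9 and 75.3 CPM with GSI, a log2 fold change of 0.48, and the coactivator Ppargc1b had one of 0.47. Nrf1, at 15.9 and 16.4 CPM with DMSO and 17.6 and 16.7 CPM with GSI, had a log2 fold change of 0.09 and did not pass. No protein level or activity of these factors was measured here.

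The mRNAs of mitochondrial ribosomal proteins are short, and transcript length moved with the fold change over all genes. Their principal transcripts had a median length of 1302 bases, against 2968 over all genes tested with one. The Spearman rho between log2 fold change and length was -0.34 over all those genes and -0.17 over the 76 genes, as a description across genes. Among the 4393 genes within the same range of lengths (the quartiles of the mitochondrial ribosomal proteins, 922 and 2648 bases), 28.0% were higher and the median log2 fold change was 0.11. After a trend in length and GC content had been removed from all genes, the median of the 76 genes was 0.19 instead of 0.26, and 66 of them were above 0, of which 65 had been above 0 before.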

How the data were processed

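RNA-seq counts of IFNγ-primed, LPS/IC-activated BMMs treated with DMSO or GSI were used, with 2 replicates per group. The authors prepared strand-specific poly(A) libraries, trimmed adapters with Trimmomatic, aligned the reads with STAR to mm10 and counted them with HTSeq. The deposited table holds unnormalized counts for each gene and run. The submitters' processing notes give STAR 2.5.0a and name both mm9 and mm10. The HTSeq strand setting is not given in the sources used here. The last number of a column title was taken as the run, and the 4 runs of a replicate were summed.

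Differences were tested with edgeR 4.0.16 in R 4.3.3 (quasi-likelihood test, filterByExpr, TMM, group as the only factor, Benjamini-Hochberg adjustment over 13211 genes). Calls used an FDR under 0.05. CPM values used TMM-adjusted library sizes. A level of 3 counts, the floor, was 0.0529 to 0.0697 CPM and covers counting error only. The script was tested on simulated data. The labelled replicate numbers did not mark a stated batch, and same-numbered replicates deviated together only weakly (r = 0.15 over 13211 genes, across genes), so no block was used.

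Gene positions, exons and APPRIS principal transcripts came from GENCODE M21 on GRCm38, which held 98.9% of the gene IDs. Gene starts for head-to-head pairs came from the same annotation. Promoter windows came from RefSeq on GRCm38.p6, and motifs were matched exactly on both strands.

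The genes and lists were chosen with earlier results of these data known. Genes named were the 8 largest increases, the 4 highest and 4 lowest levels per length and the 3 smallest changes of each subunit, untested genes, genes with a known separate role, at most 3 called genes per related list, and Myc, Nrf1 and Gabpa. Some exceptions are marked, and others (Mrpl46, Rbfa, C1qbp, Gabpb1, mt-Rnr1, mt-Rnr2, Dap3 and Ptcd3) also fall outside this rule.

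Alternatives were the replicate number as a block, DESeq2 1.42.0, no filter or one of at least 10 counts in every library, RLE or no normalization factors, an FDR under 0.01, 16 runs as separate samples, leaving out each library, and genes without overlapping exons. Removing a length and GC trend and the principal transcript length were added after the data were seen.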

Additional observations from a re-analysis of the deposited data

How the results depend on the processing

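The count of 48 mitochondrial ribosomal protein genes higher with GSI was 33 in DESeq2, 46 with RLE or with no normalization factors, 48 with no filter, 47 with at least 10 counts in every library and 29 at an FDR under 0.01. Adding the replicate block gave 57, which included all 48. No gene past both the FDR and an absolute log2 fold change of 1.5 remained (0). Treating the 16 runs as separate samples, which are not independent, gave 63 higher and 1 lower (large subunit, Mrpl33). Among genes without overlapping exons, 28 were higher. The share higher over all genes tested moved too: it was 19.0% in the reported test, 13.6% in DESeq2, 18.4% with RLE, 18.2% with no factors, 12.2% with no filter, 12.2% at an FDR under 0.01, 19.5% with at least 10 counts, 23.7% with the block and 34.9% with 16 runs.

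When 1 library was left out, the lone library of a group was assumed to vary like the other group. The count then ran from 27 to 46 (large subunit 19 to 32, small subunit 8 to 14), with 27 without DMSO replicate 2. The median log2 fold change ran from 0.24 to 0.30 (large 0.27 to 0.32, small 0.21 to 0.29). DESeq2 gave 11 genes of the small subunit and 22 of the large. With the length and GC trend removed, the median was 0.19 (large 0.21, small 0.15). The log2 ratio of large to small changed by 0.0175, by 0.0693 with levels per kb of exon and by 0.0324 with the principal transcript.

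Of the 48 higher genes, 22 kept their call in each fit without 1 library, and 66 of the genes had a log2 fold change above 0 in all of these fits. Over 33 named genes and their alternatives, 322 of 363 values kept direction and call, 24 lost and 9 gained the call, and 8 changed sign. Among these 33 genes the sign changed in Mrps9, Mrpl18, Mrps15 and Mrps36. Over all 76 genes, 73 were above 0 in the reported test and 66 without GSI replicate 1. Mrps9 was at 0.0068 with no filter, at 0.0044 with 16 runs and at -0.084 to 0.08 without 1 library, among them 0.0351. Without 1 library Mrpl18 ran from -0.042 to 0.12, Mrps15 from -0.10 to 0.25 and Mrps36 from -0.23 to 0.30, among them -0.10. The cause was not tested. With 2 libraries per group, log2 changes below the median of these genes often did not reach the threshold.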
